A study of Homo sapiens with 5 samples.

Results

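HELLS, EXT1 and IRS4 are 3 genes whose deposited SRSF9 peaks had been picked out for values below 0. Their peaks were the rows of the authors' peak table that overlapped, by at least 1 nt, the hg19 intervals on chromosome 10 from 96305000 to 96374000 for HELLS, on chromosome 8 from 118811000 to 119125000 for EXT1 and on chromosome X from 107975000 to 107980000 for IRS4. They were 181 of the 80357 distinct peaks of the table, with 56 in HELLS, 116 in EXT1 and 9 in IRS4. The genes were chosen on the values of all 4 libraries, so the number of their values below 0 is a description and was not tested.

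The splicing factor SRSF9 belongs to the serine/arginine-rich (SR) proteins, and its RNA contacts were mapped in the human embryonic kidney line HEK 293T. The method was eCLIP, which pulls down fragmented RNA with the protein that holds it, cuts the complex from a membrane and sequences the RNA. The SRSF9-only condition had 2 libraries from cells overexpressing SRSF9, and the other condition had 2 libraries from cells in which SRSF9 and ADAR2 were both overexpressed, the latter being the enzyme that turns adenosine into inosine where RNA is double-stranded. A further input library came from cells overexpressing both proteins. SRSF9 was thus overexpressed in every library, the sample labels name an anti-SRSF9 antibody while the extraction protocol names MYC-coupled beads, and separate cultures are not named for the paired libraries, so their spread may be technical. The purpose stated was to study how SRSF9 acts on the targets of ADAR2. The table is of bound RNA and gives no expression of marker genes, so the identity of the cell line was not tested.

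HELLS, also called LSH, is a helicase of the SNF2 family that remodels chromatin and is needed for normal DNA methylation. EXT1 is a Golgi glycosyltransferase that, with EXT2, builds the heparan sulfate chains of proteoglycans. IRS4 is an insulin receptor substrate, an adaptor protein that links insulin and IGF1 receptors to downstream signalling. SR proteins such as SRSF9 bind exons and introns of pre-mRNA and influence the choice of splice sites. In the GENCODE release 29 annotation the principal HELLS transcript lies on the plus strand, has 22 exons and spans 56283 nt. The principal EXT1 transcript lies on the minus strand with 11 exons, and its first intron takes 86.0% of its span of 317364 nt. The IRS4 transcript lies on the minus strand and is a single exon of 3928 nt. That annotation is on GRCh38, so peaks on hg19 were not assigned to exons, introns or UTRs, and distances are counted from the end of each interval that is 5′ by the gene's strand. The table itself gives no strand, so RNA of an overlapping gene cannot be told apart.

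Each deposited value is a log2 ratio whose denominator is not named. A value below 0 therefore says that the library's signal at a peak was lower than whatever the authors divided by. A peak has values only for the condition in which it was found, and within a condition the sign was the same in both libraries at every peak of the table. Read depths are not in the table and are unknown, so no interval was put on single values. Intervals on shares of peaks are 95% Wilson intervals, cover counting error only, and treat as independent peaks that share a transcript.

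Values below 0 were frequent in HELLS and EXT1 and few in IRS4. With ADAR2, 20 of 49 HELLS peaks were below 0 in both libraries, 40.8% (28.2 to 54.8), against 7.42% of all peaks present with ADAR2. In EXT1 these were 29 of 114 peaks, 25.4% (18.3 to 34.1). In IRS4 they were 1 of 7, 14.3% (2.57 to 51.3). The IRS4 interval thus did not hold the many negative peaks for which the gene was named.

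Without ADAR2 the share of negative peaks was near that of the table. In the SRSF9-only libraries 5 of 19 HELLS peaks, 1 of 7 EXT1 peaks and 1 of 3 IRS4 peaks were below 0 in both, 24.1% (12.2 to 42.1) of the 29 together, against 25.6% of all peaks in that condition. Over both conditions, peaks with every value below 0 numbered 20 of 56 in HELLS, 29 of 116 in EXT1 and 2 of 9 in IRS4, against 8.27% of all distinct peaks. Of the 18 shared peaks of the 3 genes, 0 were below 0 in both conditions, against 5.65% of the 3645 in the table, a share too small to tell from 0 in so few peaks.

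The depth of the negative values also differed among the genes. In HELLS the median mean of the below-0 peaks with ADAR2 was -1.15, and 9 of them were below -1 in both libraries, a depth that 0.842% of all distinct peaks had in every library. In EXT1 the median was -0.67 and 1 peak was below -1 in both libraries, while the single below-0 IRS4 peak with ADAR2 had a mean of -0.14. The corresponding median over the whole table was -0.57. HELLS and EXT1 did not lack positive peaks, but high ones made up a smaller share than in the table. Peaks above 1 in both libraries with ADAR2 were 13 of 49 in HELLS, 23 of 114 in EXT1 and 0 of 7 in IRS4. Over the whole table they were 32552 of 75594.

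In HELLS the negative values with ADAR2 lay mostly in a pair of unbroken blocks. Ordered along the gene, the 49 peaks present with ADAR2 began with 5 above 0, from 0.641 to 10.8 kb from the 5′ end. The next 7, from 17.9 to 23.2 kb (chromosome 10 from 96322871 to 96328263), were all below 0. Of the following peaks, 13 in a row were above 0 between 43.0 and 56.5 kb, and then 10 in a row were below 0 between 56.7 and 65.9 kb (96361701 to 96370872). The last 2 were above 0. Only 3 of the 20 below-0 peaks with ADAR2 lay outside these blocks, at 96339507 to 96339514, 96344287 to 96344290 and 96346464 to 96346482.

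**Figure D1:**
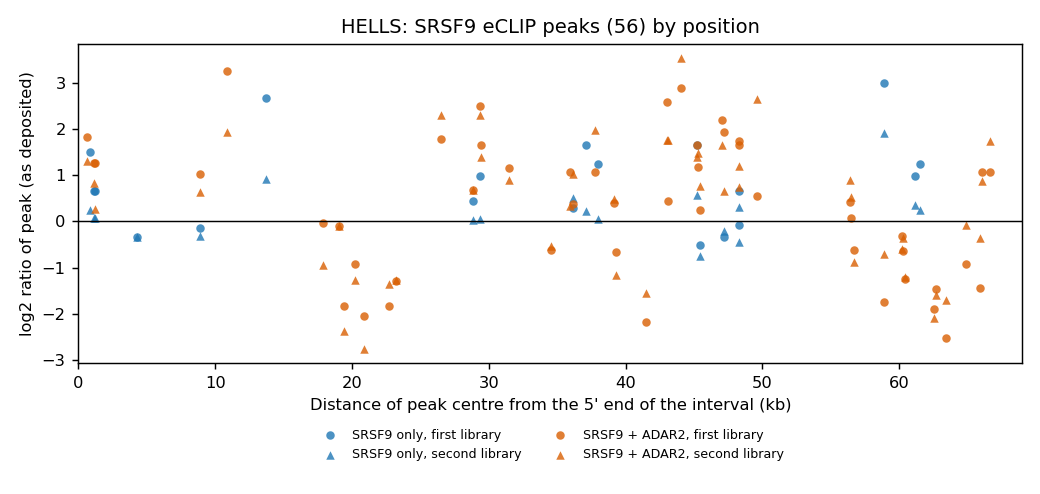
HELLS peaks by distance from the 5′ end of the interval (x axis, kb) and deposited log2 ratio (y axis); blue marks are the SRSF9-only libraries and orange marks the libraries with ADAR2, with circles for the first and triangles for the second library of a condition. Orange values are all below 0 from 17.9 to 23.2 kb and from 56.7 to 65.9 kb, stretches defined by that sign. The blue values of the 3 peaks inside the latter block are above 0, as at most SRSF9-only peaks of the table.

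The lowest HELLS values were inside these blocks. The first block held the lowest peak, only 2 nt wide at 96325881 to 96325882, with -2.05 and -2.75 in the libraries with ADAR2. It also held the third lowest, at 96324394 to 96324424, with -1.82 and -2.37. Both libraries were thus well below 0 at each. The second block held a peak at 96368410 to 96368448 with -2.52 and -1.71. Over the first block means ran from -2.40 to -0.11 with a median of -1.28, and over the second from -2.11 to -0.45 with a median of -1.06, so the blocks were of similar depth.

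The highest HELLS peaks lay between the blocks and before the first. By the mean over all libraries in which a peak was present, the 3 highest, like the 3 lowest, were found only with ADAR2. The peak at 96349003 to 96349047 had 2.88 and 3.52 with ADAR2, and that at 96347999 to 96348069 had 2.57 and 1.76. Before the first block, the peak at 96315831 to 96315857 had 3.24 and 1.94. By the mean with ADAR2 alone, the shared peak at 96334336 to 96334396, with 2.48 and 2.30, ranked above that at 96347999. By that same mean, the peak nearest to 0 from below was at 96324044 to 96324073, with -0.10 and -0.11. The nearest from above was at 96361482 to 96361488, with 0.07 and 0.52.

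The second HELLS block also held 3 SRSF9-only peaks, all of the opposite sign, of which 1 coincided with a peak with ADAR2. A shared peak at 96363901 to 96363921 fell from 2.98 and 1.92 in the SRSF9-only libraries to -1.74 and -0.71. Peaks found only without ADAR2 lay at 96366109 to 96366151, with 0.98 and 0.36, and at 96366503 to 96366523, with 1.24 and 0.25. Those 3 were above 0, as were most SRSF9-only peaks of the table, of which 25.6% were below 0. All 10 peaks with ADAR2 in the block were below 0, which its definition as a negative run forces. The first block held no SRSF9-only peak. The second block began 56.7 kb from the 5′ end of the interval, and the principal GENCODE transcript spans 56283 nt. The former is counted from the end of the interval and not from the transcript start, and the builds differ. Whether that block lies beyond the transcript was therefore not determined.

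Negative SRSF9-only values of HELLS fell elsewhere. The 5 peaks below 0 without ADAR2 were all outside both blocks, and 4 of them were shared peaks that were above 0 with ADAR2. For those 4 the place is forced, since a block by its definition holds no peak above 0 with ADAR2. The fifth, at 96309263 to 96309305, was found only without ADAR2 and had -0.34 and -0.34. Their median mean was -0.28, shallower than the -1.15 of the negative peaks with ADAR2.

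EXT1 values below 0 were scattered among positive ones. The 29 below-0 peaks with ADAR2 formed 20 separate stretches, of which 14 were a single peak and the longest was 4 peaks, on chromosome 8 from 119006814 to 119016802. That stretch lay between 108 and 118 kb from the 5′ end, and its values ran from -1.11 to -0.45. A stretch of 3 lay from 119058586 to 119062872, with values from -1.39 to -0.11.

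**Figure D2:**
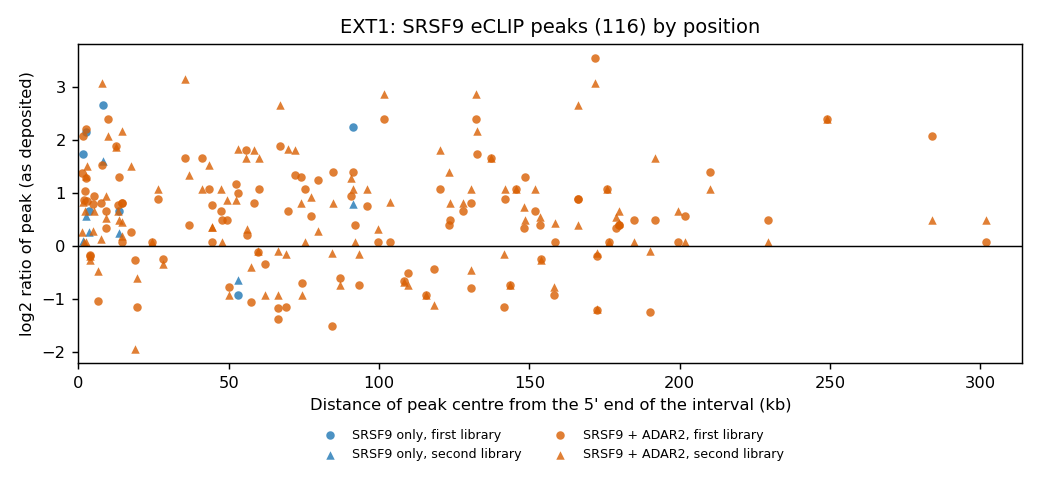
EXT1 peaks by distance from the 5′ end of the interval (x axis, kb) and deposited log2 ratio (y axis); blue marks are the SRSF9-only libraries and orange marks the libraries with ADAR2, with circles for the first and triangles for the second library. Peaks thin out away from the 5′ end, and orange values below 0 are interspersed with positive ones up to 190 kb.

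EXT1 peaks became sparser from the 5′ to the 3′ end. With the interval cut into 10 equal parts of 31.4 kb, the first 3 held 31, 19 and 18 peaks, the next 4 held 11, 15, 13 and 5, and the last 3 held 2, 0 and 2. Below-0 peaks with ADAR2 numbered 6, 4, 7, 4, 4, 3 and 1 in the first 7 parts and 0 in the last 3. Negative values were therefore found along most of the stretch that had peaks at all, and the last 3 parts had only 4 peaks to show any. The most distal negative peak was at 118934986 to 118935028, 190 kb from the 5′ end, with -1.25 and -0.09. SRSF9-only peaks reached less far: all 7 lay within 91.2 kb of the 5′ end, and 5 of them in the first part.

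The lowest and highest EXT1 peaks could be neighbours. The lowest mean was at 118952607 to 118952623, with -1.21 and -1.20, and the highest was at 118953221 to 118953275, with 3.53 and 3.06, less than 1 kb away. Both were found only with ADAR2, and their libraries did not overlap, which their opposite signs force. Other low peaks were at 119058741 to 119058766, with -1.39 and -0.94, and at 119106236 to 119106251, with -0.28 and -1.94. The latter shows that the libraries of a condition could differ by more than 1 log2 unit at a single peak. The next highest peaks, at 119023379 to 119023410 and 118992676 to 118992732, had the same pair of values, 2.39 and 2.87.

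Many values in the table came in coarse steps. In the first library with ADAR2, 56 of 114 EXT1 values, 49.1%, lay within 0.0011 of the library's most frequent value plus log2 of a ratio of whole numbers up to 6, and in the second library 58 did. Over the whole table these shares were 52.9% and 55.1%, where 1.14% of evenly spaced values would lie as near. In HELLS they were 20.4% and 24.5% of 49 values, and in IRS4 0 of 7 in each library. For the SRSF9-only libraries the shares over the whole table were 56.4% in the first but 5.21% in the second, so the steps were not alike in all libraries. The EXT1 values just below and just above 0 were -0.12 and -0.11 at 119065312 to 119065343, and 0.07 and 0.06 at 118948447 to 118948464.

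The 9 IRS4 peaks stayed close to 0. The peak at chromosome X from 107976202 to 107976290 had 0.75 and 0.46 with ADAR2, the highest mean of the gene. A peak at 107976558 to 107976632 had 0.56 and 0.23. The lowest positive peak, at 107977369 to 107977411, had 0.24 and 0.04. Values below 0 were found at 2 peaks, both narrow. The peak at 107978484 to 107978496, 1.51 kb from the 5′ end, was found only without ADAR2 and had -0.25 and -0.71. The peak at 107975947 to 107975953, 4.05 kb from the 5′ end, was found only with ADAR2 and had -0.17 and -0.11.

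Just beyond the 3′ end of the IRS4 interval, values below 0 were dense. Within 100 kb on that side there were 21 peaks, all between 0.109 and 9.39 kb from the interval (107965604 to 107974905). Of the 19 present with ADAR2, 12 were below 0 in both libraries, 63.2% (41.0 to 80.9). These 12 formed 1 unbroken block from 107966668 to 107974614, with values from -1.79 to -0.05. The 7 peaks on either side of the block were above 0, between 0.06 and 1.98. The nearest peak to the interval, at 107974877 to 107974905, had 0.30 and 0.54. Whether these peaks belong to an IRS4 transcript was not determined here. No peak lay within 100 kb beyond the 5′ end.

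**Figure D3:**
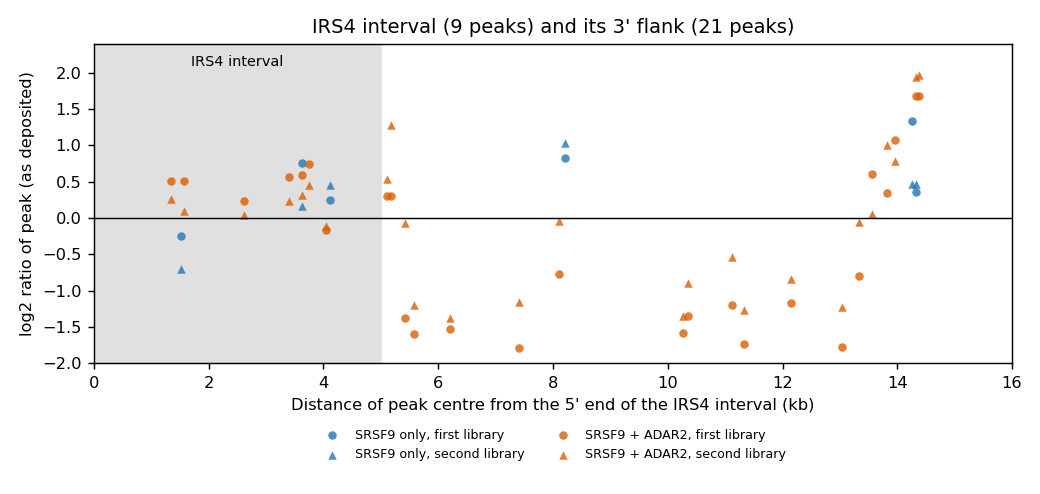
Peaks of the IRS4 interval (grey) and its 3′ flank by distance from the 5′ end of the interval (x axis, kb) and deposited log2 ratio (y axis); blue marks are the SRSF9-only libraries and orange marks the libraries with ADAR2, with circles for the first and triangles for the second library. Inside the interval values lie between -0.71 and 0.77, and beyond it 12 peaks in a row are below 0 in orange, while the 3 blue peaks there are above 0.

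The IRS4 flank held 3 SRSF9-only peaks. All were above 0, with values from 0.36 to 1.34, as were most SRSF9-only peaks of the table, and 1 of them, at 107971758 to 107971807 with 0.83 and 1.03, lay inside the negative block. The HELLS interval had no peak within 100 kb beyond its 3′ end and 2 peaks, neither below 0, before its 5′ end. EXT1 had none within 100 kb on either side.

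Long unbroken blocks of negative peaks were few in the table. Among peaks present with ADAR2 on nuclear chromosomes, 9 runs of at least 7 consecutive peaks were below 0 in both libraries, of 4476 runs of any length. Of these 9, 2 were the HELLS blocks, and the IRS4 flank held the second longest, after a run of 28 peaks on chromosome X from 73061385 to 73069367. EXT1 held none. The length of 7 was set after the HELLS blocks were seen, and a run takes no account of the distance between peaks.

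Among 939 windows of 100 kb outside the 3 genes with at least 20 peaks, the median share of below-0 peaks was 8% (quartiles 3.85 and 12.9). A share as high as that of HELLS was found in 8 windows, of EXT1 in 57 and of IRS4 in 75. The windows are not like the genes, whose intervals are 69, 314 and 5 kb long, and the 9 IRS4 peaks are fewer than a window had to hold. The highest shares were on the mitochondrial chromosome, with 70 of 80 peaks, on chromosome X from 107900001 to 108000000, which is the IRS4 flank, with 12 of 21, and on chromosome 22 from 43000001 to 43100000, with 10 of 20.

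HELLS had relatively few peaks exclusive to the ADAR2 condition and EXT1 had almost no others. Of the HELLS peaks, 66.1% (53.0 to 77.1) were found only with ADAR2, 12.5% (6.19 to 23.6) only without it and 21.4% (12.7 to 33.8) in both. In EXT1 these shares were 94.0% (88.1 to 97.0), 1.72% (0.474 to 6.07) and 4.31% (1.85 to 9.69). The whole table had 89.5%, 5.93% and 4.54%, so the table's share of shared peaks lay below the HELLS interval and within that of EXT1. In IRS4 6 peaks were found only with ADAR2, 2 only without it and 1 in both. Among peaks found only with ADAR2, 19 of 37 in HELLS and 29 of 109 in EXT1 were below 0, against 7.4% in the table.

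Peaks below 0 were the narrower ones in HELLS and EXT1. Median widths were 29 nt below 0 and 42 nt otherwise in HELLS, and 28 and 42 nt in EXT1. Over the whole table these medians were 30 and 34 nt. Among peaks found only with ADAR2 the medians were 28 against 40.5 nt in HELLS and 28 against 40 nt in EXT1, so the order was the same within that class. Peaks of 1 gene are not replicates, and widths were not tested. In the IRS4 flank the order was the other way, with 46 nt for the 12 negative and 29 nt for the 7 positive peaks with ADAR2.

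Of the shared peaks, with a value in all 4 libraries, 15 of 18 had a higher mean with ADAR2, against 73.6% of all shared regions. By limma over all 3645 shared regions with Benjamini-Hochberg adjustment, 3 of the 18 were higher with ADAR2 and 1 was lower, against 18.5% and 2.41% of all regions. The median difference, with minus without, was 0.49 in the 18 and 0.62 in all regions. The second SRSF9-only library stood apart, with a median of 0.24 over its peaks in the table, against 1.07, 1.16 and 1.06 in the others. With each library centred on its median over the shared regions, the median difference was -0.10 in the 18 and 0.03 in all regions. Both libraries with ADAR2 exceeded both without at 9 of the 18 and lay below both at 1, against 49.9% and 9.22% of all regions. The calls among these 18 were thus near the background of the table, and nothing particular to the 3 genes can be read from them. The genes were chosen on values of these same 4 libraries, so the limma adjusted p of a single region in them is a description only.

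**Figure D4:**
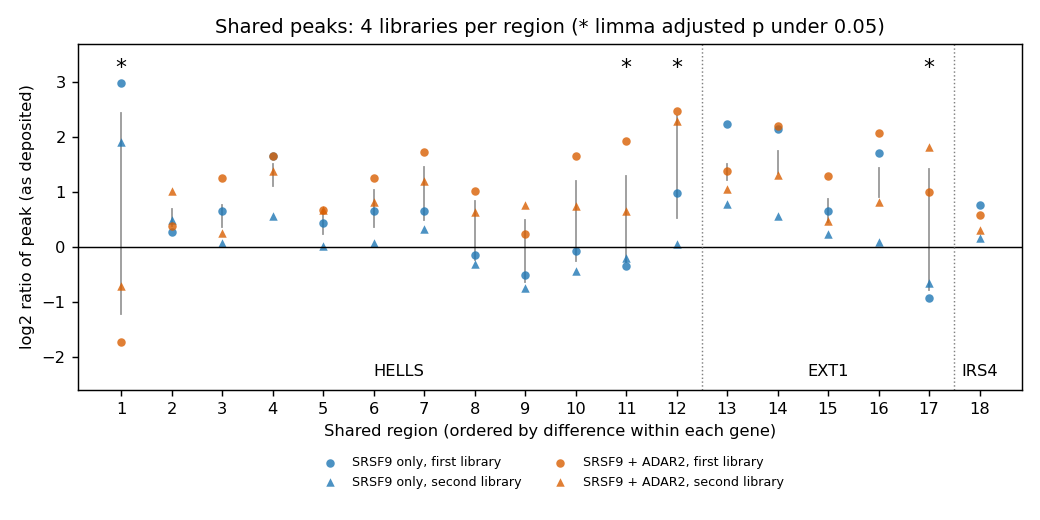
Deposited log2 ratios (y axis) of the 18 shared regions in HELLS, EXT1 and IRS4, ordered by difference within each gene (x axis); blue marks are the SRSF9-only libraries, orange marks the libraries with ADAR2, circles and triangles the first and second library, and grey lines join the means of the conditions. Asterisks mark the 4 regions with a limma adjusted p under 0.05, of which 1 HELLS region is lower with ADAR2.

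The HELLS region that fell was the shared peak of the second negative block. From 2.45 ± 0.75 without ADAR2 it went to -1.22 ± 0.73 with it (SD, n = 2 libraries each). limma gave a difference of -3.67 ± 0.59 (SE) and an adjusted p of 8.74e-08, which was 6.03e-06 with each library centred on its median. It did not pass without the first or without the second SRSF9-only library, and over the 4 fits without 1 library the limma adjusted p ran from 0.000165 to 0.0867. The SE was identical for all regions in the main fit, because limma there pooled the variance fully over the shared regions. The adjusted p of that fit thus rests on the pooled spread and not on the region's own 2 libraries per condition. Since the sign is shared within a condition, this region could not reverse when 1 library was left out.

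Both HELLS regions that rose with ADAR2 lay between the blocks. At 96334336 to 96334396 the SRSF9-only libraries had 0.98 and 0.06 and those with ADAR2 2.48 and 2.30, which do not overlap. The difference was 1.87 ± 0.59 (SE), with a limma adjusted p of 0.0127. At 96352152 to 96352267 the former had -0.34 and -0.21 and the latter 1.93 and 0.66, a change of sign. Here the difference was 1.57 ± 0.59 (SE) and the limma adjusted p 0.0420, which centring moved to 0.123, with a difference of 0.98, so that it no longer passed. Without the first library with ADAR2 the difference was 0.93, and without any 1 library it ran from 0.93 to 2.20.

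The other HELLS regions below 0 without ADAR2 also had values above 0 with it, and did not pass the test. At 96350394 to 96350436 the SRSF9-only values were -0.51 and -0.75, and 0.24 and 0.76 were measured with ADAR2. At 96353264 to 96353271 they were -0.08 and -0.44, then 1.65 and 0.74, with a limma adjusted p of 0.0619. At 96313882 to 96313928 they were -0.15 and -0.32, then 1.02 and 0.65. The libraries of the conditions did not overlap at any of the 3. That is forced by the change of sign, since the libraries of a condition share their sign. Of shared regions negative in both SRSF9-only libraries, 830 in the whole table turned positive with ADAR2 and 206 stayed negative. In the 3 genes 5 turned positive and 0 stayed negative, so this change of sign was not particular to them.

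A pair of HELLS regions close to the 5′ end, 96306133 to 96306151 and 96306168 to 96306225, had the same 0.66 and 0.07 without ADAR2 and the same 1.26 in the first library with it. Neighbouring rows can thus carry a value in common, and this was so for 2 of the 14 HELLS and 4 of the 21 EXT1 neighbours less than 200 nt apart. Among neighbours farther apart it was so for 1 of 41 in HELLS and 4 of 94 in EXT1. The remaining HELLS regions had differences from 0.31 to 0.98 and none passed.

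In EXT1 the region that rose was its only SRSF9-only peak below 0. At 119071859 to 119071924 the SRSF9-only values were -0.93 and -0.65, against 1.00 and 1.83 with ADAR2. The difference was 2.20 ± 0.59 (SE), with a limma adjusted p of 0.00283 (0.0177 after centring). The other 4 EXT1 regions had overlapping libraries and differences from -0.29 to 0.54. The most 5′ of them, at 119123541 to 119123618, had SRSF9-only values of 1.72 and 0.09, against 2.07 and 0.82 with ADAR2, so the SRSF9-only libraries differed from each other more than the conditions did.

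The single shared IRS4 region, at 107976351 to 107976400, had SRSF9-only values of 0.77 and 0.16, against 0.59 and 0.32 with ADAR2. The libraries overlapped and the difference was -0.01 ± 0.59 (SE), with a limma adjusted p of 0.993. With 2 libraries per condition this does not show that the conditions were alike. In all 4 fits that left out 1 library, none of the 3 regions that rose in HELLS and EXT1 passed (limma adjusted p from 0.0615 to 0.285 at 96334336, 0.0930 to 0.656 at 96352152 and 0.0659 to 0.185 at 119071859). Without either SRSF9-only library limma called 0 regions in the whole table, where 1405 and 1051 had an unadjusted p under 0.05.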

How the data were processed

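The deposited table holds log2 ratios per peak and library, made by the authors on hg19 per the submitters' processing notes. It has no header, strand, gene name or read count. The labels leave the aligner, peak caller, thresholds and denominator unstated (not given in the sources used here). A pair of zeros marks a peak as absent from a condition, and on that basis the column pairs were assigned to conditions. Within a pair the libraries are called first and second in file order. Of 80514 rows, 157 repeated coordinates and were averaged. The 3 genes and all lists were chosen with earlier results of these data known.

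Peaks to be named were all shared peaks (where a gene has over 10, the 5 with the largest differences), the 3 lowest and the 3 highest of each gene; further peaks, among them those of blocks and the other HELLS shared peaks, were named after their values were seen. Planned lists of related genes were not analysed here, since no annotation on hg19 was at hand. Values were compared with limma 3.58.1 in R 4.3.3, with no pseudocount because they were already log2, at an adjusted p threshold of 0.05, after the script was tested on simulated data. Python 3.11.15 was used for the rest. Alternatives were a threshold of -1, centring of each library, counting every row, whole-peak containment, 20 parts per interval and leaving out each library.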

Additional observations from a re-analysis of the deposited data

How the results depend on the processing

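No paired analysis was possible because the columns carry no replicate numbers. Where 0 lies decided the counts of peaks below 0. Below -1 they were 9 in HELLS, 1 in EXT1 and 0 in IRS4 (0.842% of all peaks). After each library was centred on its median they were 28 in HELLS, 65 in EXT1 and 8 in IRS4 (33.8% of all peaks). With the IRS4 interval extended by 100 kb at its 3′ side, an alternative chosen after seeing the data, the count was 14. Leaving out any library left the counts at 20, 29 and 2, which the shared sign of libraries forces.

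The fullest 2 of 10 parts of the interval held 45.0% of the HELLS below-0 peaks, the fullest 4 of 20 parts 70.0% and the fullest 2 of 10 parts 66.7% of those below -1. In EXT1 they held 44.8%, and 100% below -1, which is 1 peak. Among the 18 shared regions, leaving out 1 library gave 0 to 0 calls of a rise and 0 to 1 of a fall, with a lone library assumed to vary like the others. Over all regions, centring gave 12.6% higher and 10.9% lower.

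Differences near 0 changed sign. After centring they were -0.15 (119111374), -0.19 (119122393) and -0.05 (119123541) in EXT1, and -0.20 (96306168), -0.14 (96333831), -0.28 (96341119) and -0.18 (96350176) in HELLS. Leaving out 1 library, they ranged in EXT1 from -1.02 to 0.44 (119033745), from -0.39 to 1.20 (119122393) and from -0.28 to 1.36 (119123541), in HELLS from -0.10 to 0.89 (96306168), from -0.014 to 0.63 (96341119) and from -0.14 to 0.95 (96350176), and in IRS4 from -0.31 to 0.29. None of these passed the test in any fit. The causes were not tested, and read depth, which limits single values, is unknown.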
